A study of Saccharomyces cerevisiae with 4 samples.

Results

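The genes described are the phosphatases and regulators of the PHO pathway of *Saccharomyces cerevisiae*, 9 of the 6212 rows of the deposited ratio table. They were taken by systematic name and not by value. The secreted acid phosphatases are PHO5 (YBR093C), PHO3 (YBR092C), PHO11 (YAR071W) and PHO12 (YHR215W). PHO8 (YDR481C) and PHM8 (YER037W) encode phosphatases that stay inside the cell. PHO81 (YGR233C), PHO4 (YFR034C) and PHO2 (YDL106C) are regulators. All 9 had a value on each of 4 arrays, as did 4255 genes in all.

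The PHO pathway adjusts the supply of inorganic phosphate. When phosphate is plentiful, the cyclin-dependent kinase Pho85 with its cyclin Pho80 phosphorylates the activator Pho4, which then leaves the nucleus. When phosphate runs short, the inhibitor Pho81 blocks the kinase, and Pho4 with the homeodomain protein Pho2 switches on acid phosphatases that release phosphate outside the cell, transporters that import it and enzymes that store it as polyphosphate. PHO3 stands outside this control in part, as its transcript is known to be repressed by thiamine.

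Each array held cDNA of a trk1 trk2 double mutant and of the wild type, both BY4741, a laboratory strain that lacks working HIS3, LEU2, MET15 and URA3 genes. TRK1 and TRK2 encode the high-affinity potassium transporters, and how they were removed, and from how many clones, is not given in the sources used here. Both strains grew to log phase (A600 of 0.6) at 28 °C in a potassium-poor medium, with 15 µM potassium of its own, to which 50 mM KCl had been added, so the comparison shows how the mutant differs when potassium is supplied. Arrays 1 and 2 were treated as experiment 1 and arrays 3 and 4 as experiment 2, with the mutant in Cy5 on arrays 1 and 4 and in Cy3 on arrays 2 and 3. Values are log2 ratios of mutant over wild type, with base 2 assumed, and a mean is that of the 2 experiments with limma's moderated standard error (SE, n = 2 experiments). The study's description calls the experiments independent but does not mention separate cultures, so the spread between these experiments may be technical. The p-values rest on that spread only in part, as limma moderates it toward its level over all genes (prior degrees of freedom 5.33). Arrays of an experiment were averaged first, so the disagreement between them does not itself enter the SE. The arrays gave 4690 to 5403 values each. TRK1 read −6.13 and −4.60 on the arrays that listed it, arrays 1 and 4, and TRK2 read −4.23 on array 4 alone. Array 4 correlated least with the others over the 4255 genes, with r from 0.273 to 0.392 against 0.552 to 0.796 among arrays 1 to 3.

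None of the 9 genes passed limma's test over all genes at an adjusted p of 0.05, with adjusted p from 0.113 for PHO3 to 0.670 for PHO2, while 3.36% of all genes tested passed (1.62% as higher and 1.74% as lower). PHO3 and PHO5 had the highest ratios, at 1.67-fold and 1.55-fold, and PHO12 and PHO81 the lowest, at 1.54-fold and 1.43-fold below the wild type. These 4 genes, 2 higher and 2 lower, were the ones with an unadjusted p under 0.05, a level that 20.2% of all genes reached (7.33% as higher and 12.9% as lower). The members' means had a median of −0.17, against −0.04 over all genes, and 5 of the 9 were negative, against 55.2% of all genes. PHO3 and PHO5 were positive on all 4 arrays, as were 17.5% of all genes, and PHO81 was negative on all 4, as were 21.1%. Both PHO3 and PHO5 were also at least 1.5-fold higher with 1 sign throughout, which held for 3.88% of all genes. Without array 4 the means of PHO3 and PHO5 were 0.42 and 0.33, both under 1.5-fold.

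**Figure D1:**
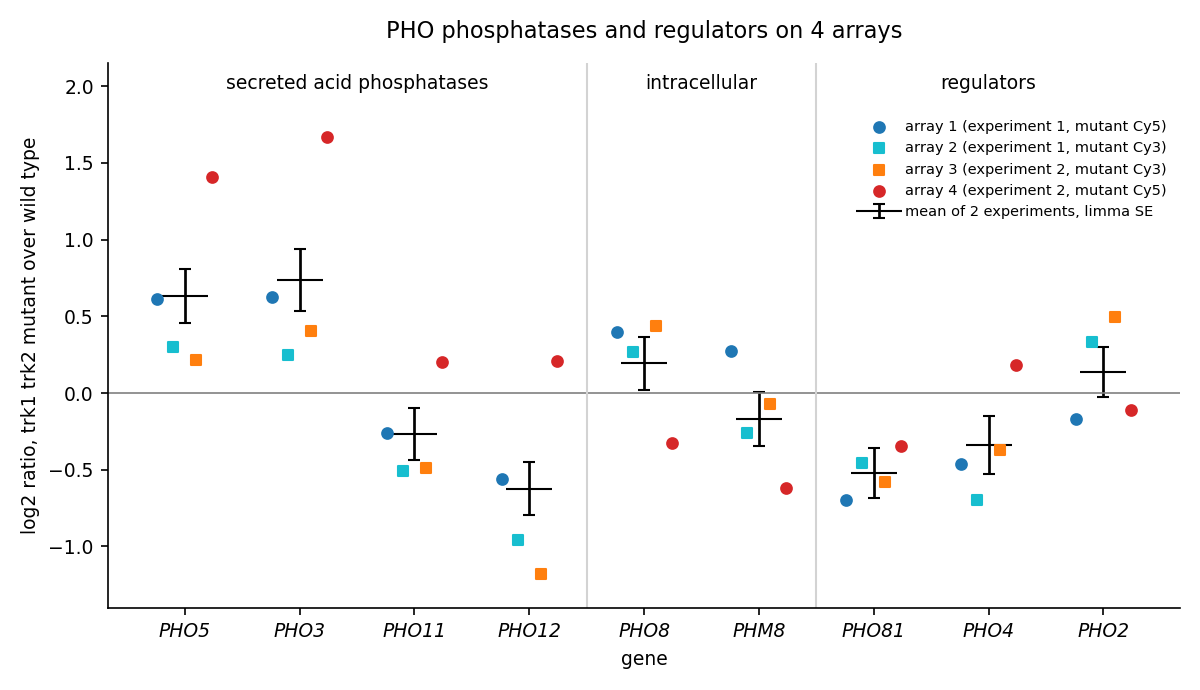
Log2 ratio of mutant over wild type (vertical axis) for each of the 9 genes (horizontal axis), by array; black bars are means of 2 experiments with limma's SE. PHO3, PHO5 and PHO81 keep 1 sign on all 4 arrays, while PHO11, PHO12, PHO4 and PHO8 have the opposite sign on array 4.

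Among the secreted acid phosphatases, PHO5 encodes the main enzyme made under phosphate shortage. It read 0.61, 0.30, 0.21 and 1.41 on arrays 1 to 4. All arrays were above 0, with array 4 well above the rest, and the mean was 0.63 ± 0.18 (adjusted p = 0.117). PHO3, the thiamine-repressed enzyme encoded next to PHO5, read 0.63, 0.25, 0.40 and 1.67, and its mean was 0.74 ± 0.20 (adjusted p = 0.113). Again each array was positive and array 4 the highest. On array 4, PHO3 stood at percentile 99.2 and PHO5 at percentile 98.7 of the 4255 genes. On array 3 they stood at percentiles 88.3 and 77.1.

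PHO11 and PHO12 encode 2 further acid phosphatases that are nearly identical to each other. PHO12 read −0.56, −0.96, −1.18 and 0.21, so 3 arrays were clearly below 0 and array 4 above it. Its mean was −0.62 ± 0.17 (adjusted p = 0.114). PHO11 read −0.26, −0.51, −0.49 and 0.20, the same order of signs with smaller values on arrays 1 to 3, and a mean of −0.27 ± 0.17 (adjusted p = 0.426). On array 2 PHO12 stood at percentile 4.02 of all genes and PHO11 at percentile 15.8, whereas on array 4 they stood at percentiles 64.4 and 64.0. Without array 4 the mean of PHO12 was −0.97 and passed (adjusted p = 0.0447), where 2.84% of all genes passed as lower, and without array 3 it was −0.28 (adjusted p = 0.766). PHO3 and PHO5 share much of their sequence, as do PHO11 and PHO12. The probes' sequences were not at hand, so a spot of one gene may carry signal of its relative, and the values of all 4 genes are uncertain in that respect.

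The 4 acid phosphatase genes thus formed a higher pair and a lower pair, all of them highest on array 4. PHO5 exceeded PHO12 by 1.17, 1.26, 1.39 and 1.20 on arrays 1 to 4, a mean difference of 1.26 ± 0.10 on the log2 scale (SD, n = 4 arrays of 2 experiments). PHO3 exceeded PHO12 by 1.36 ± 0.20, PHO3 exceeded PHO11 by 1.003 ± 0.32 and PHO5 exceeded PHO11 by 0.90 ± 0.22, each in 4 of 4 arrays. Within pairs the differences were smaller: PHO5 minus PHO3 was −0.11 ± 0.15 and lay on both sides of 0, and PHO11 minus PHO12 was 0.36 ± 0.29 and positive on 3 of 4 arrays. For 5 of these 6 comparisons the two-sided exact sign-flip permutation test over 2 experiments gave p = 0.5, the smallest it can give (0.6 adjusted over 6 pairs), so this test cannot place any of them past a threshold. For PHO5 against PHO3 the exact test gave p = 1. The spread of PHO5 alone over the 4 arrays (SD 0.54) and that of PHO12 alone (SD 0.61) were both larger than that of their difference.

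**Figure D2:**
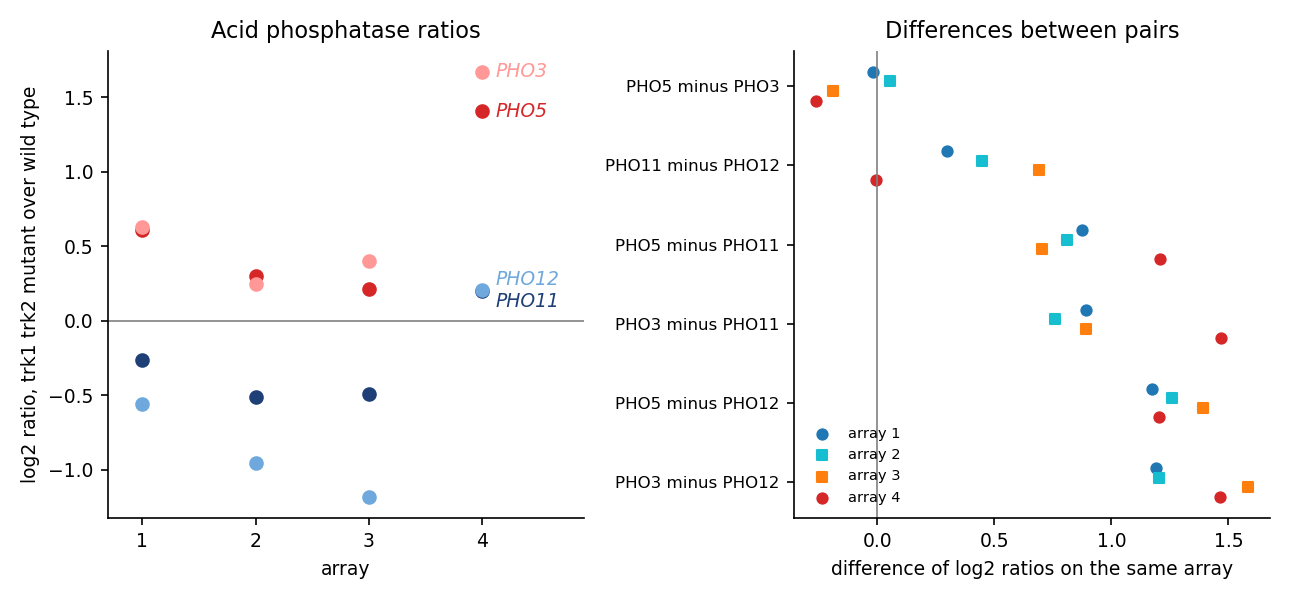
Left, log2 ratio of mutant over wild type (vertical axis) of the 4 acid phosphatase genes on each array (horizontal axis). Right, differences of log2 ratios between 2 genes on the same array (horizontal axis) for 6 pairs: the 4 comparisons of PHO5 or PHO3 with PHO11 or PHO12 lie between 0.70 and 1.58, and PHO5 minus PHO3 lies on both sides of 0.

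The intracellular phosphatases had means nearer to 0 than those of PHO5, PHO3 and PHO12, from arrays of opposite sign. PHO8, the vacuolar alkaline phosphatase, read 0.40, 0.27 and 0.44 on arrays 1 to 3 but −0.33 on array 4. The mean of 0.19 ± 0.17 (adjusted p = 0.557) thus joined 3 positive arrays with 1 negative array, and without array 4 it was 0.39 (adjusted p = 0.190). PHM8, a soluble phosphatase that acts on lysophosphatidic acid and nucleotides and is induced by phosphate shortage, read 0.28, −0.26, −0.07 and −0.62. Its values had no common sign, and its mean was −0.17 ± 0.18 (adjusted p = 0.624). Array 4 was the lowest array for both genes, the reverse of the acid phosphatases.

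Of the regulators, PHO81, the inhibitor of the Pho80-Pho85 kinase and itself a target of Pho4, had the tightest values of the 9 genes, at −0.70, −0.45, −0.58 and −0.35. All 4 arrays lay below 0 within a range of 0.35, and the mean was −0.52 ± 0.16 (adjusted p = 0.149). It passed when the arrays were taken as 4 separate replicates (adjusted p = 0.0432) and when the experiment entered as a random block (adjusted p = 0.0373), where 5.88% and 6.86% of all genes passed as lower. The fit with separate arrays uses the dye swaps as if they were further replicates. The random block allows for a correlation within an experiment, which was estimated at −0.0461, so it came close to separate arrays here. PHO4, the basic helix-loop-helix activator, read −0.47, −0.70, −0.37 and 0.19, so array 4 again stood alone above 0, and its mean was −0.34 ± 0.19 (adjusted p = 0.368). PHO2, the homeodomain partner of Pho4, read −0.17, 0.33, 0.50 and −0.11. It was below 0 on both arrays with the mutant in Cy5 and above 0 on both with the mutant in Cy3, a pattern found in 8.41% of all genes, and its mean was 0.14 ± 0.16 (adjusted p = 0.670).

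The labels do not say which arrays form an experiment. With arrays 1 and 3 as one experiment and arrays 2 and 4 as the other, the means were the same, but 4 of the 9 genes passed. PHO3 (adjusted p = 0.0235) and PHO5 (adjusted p = 0.0350) passed as higher, where 5.99% of all genes did, and PHO81 (adjusted p = 0.0383) and PHO12 (adjusted p = 0.0406) as lower, where 11.1% did. These calls depend on that reading of the labels.

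Array 4 was the highest array for 6 of the 9 genes, against 41.1% of all genes, and the lowest for 2, against 23.8%, so it was the extreme array for 8 of them, against 64.9% of all genes. It alone opposed the sign of the other arrays in PHO11, PHO12, PHO4 and PHO8, 4 of 9 genes, against 19.0% of all genes. Its ratio exceeded the mean of arrays 1 to 3 by 1.24 in PHO3, 1.11 in PHO12, 1.03 in PHO5, 0.70 in PHO4 and 0.62 in PHO11. It lay below that mean in PHO8, PHM8 and PHO2, with differences of −0.70, −0.60 and −0.33. In PHO81 it was 0.23 above. Array 4 is a single hybridisation, and what sets it apart was not tested. Over arrays 1 to 3 alone, PHO12 averaged −0.90 (percentile 2.99 of all genes), PHO81 −0.58 (9.89), PHO4 −0.51 (12.2), PHO11 −0.42 (17.1), PHM8 −0.02 (55.9), PHO2 0.22 (79.8), PHO8 0.37 (89.0), PHO5 0.37 (89.5) and PHO3 0.43 (91.3).

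**Figure D3:**
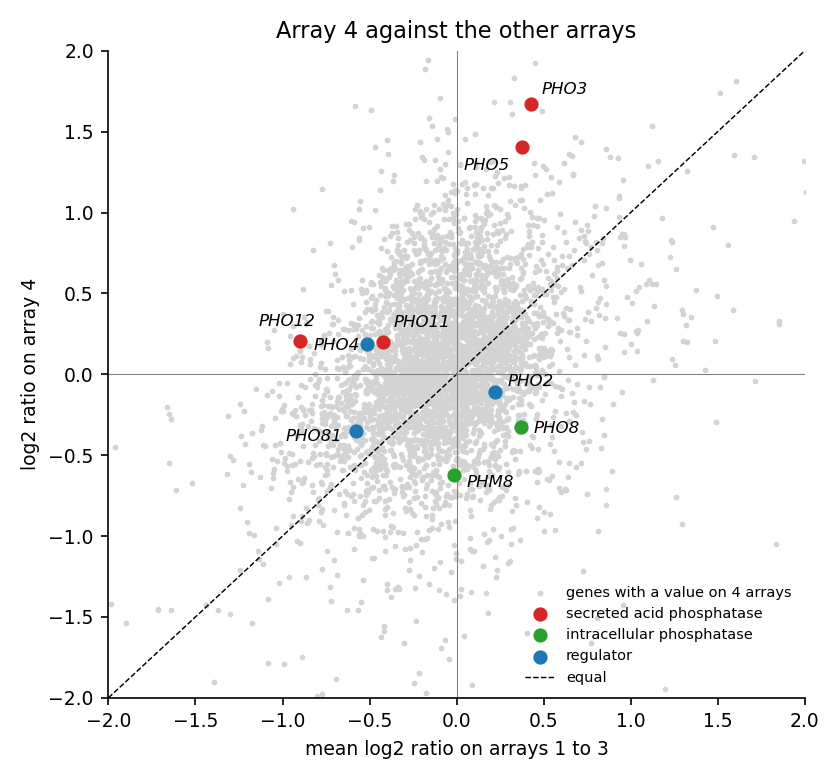
Log2 ratio on array 4 (vertical axis) against the mean log2 ratio on arrays 1 to 3 (horizontal axis) for the 9 genes, coloured by role, and all genes with 4 values (grey; 72 genes lie outside the axes). The 4 acid phosphatases, PHO4 and PHO81 lie above the line of equal values, and PHO8, PHM8 and PHO2 below it.

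The 3 genes closest to PHO3, the member with the largest mean, by Euclidean distance over the ratios of the 4 arrays were CDC6 (distance 0.153), which loads the replicative helicase, SNU13 (0.289), a protein of small nuclear and nucleolar ribonucleoproteins, and PHO5 (0.330). CDC6 read 0.77, 0.27, 0.44 and 1.63 and SNU13 read 0.60, 0.01, 0.39 and 1.83, and both were positive throughout and highest on array 4. Neither passed (adjusted p = 0.0922 and 0.155). By the same measure PHO11 ranked 2453 and PHO12 ranked 3723 from PHO3 among the genes with 4 values.

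The other Pho4 target genes had mostly negative means. Of 15 listed, 11 had values on all 4 arrays, and 10 of the 11 means were negative (55.2% of all genes), with a median of −0.48. Of these 11, 0 passed as higher and 3 as lower (1.62% and 1.74% of all genes), and 7 were lower at an unadjusted p under 0.05 in limma (12.9% of all genes). PHO84, the high-affinity phosphate transporter, fell 40.7-fold (−5.35 ± 0.34, adjusted p = 0.00274), and the polyphosphate synthase subunits VTC3 and VTC1 fell 3.51-fold and 1.92-fold (adjusted p = 0.0116 and 0.0473). PHO84 read −5.46, −6.71, −4.37 and −4.85, on the same arrays on which PHO5, a gene activated by the same factor, read above 0. The lowest value of PHO84 was on array 2, where the deleted TRK1 had none. Where both had a value, PHO84 lay above TRK1 on array 1 (−5.46 against −6.13) and below it on array 4 (−4.85 against −4.60). The fold of PHO84 may be a limit, which was not tested. The lowest value of any gene on array 4 was −6.76. The one gene of this list with a positive mean was SPL2, a regulator of low-affinity phosphate transport, at 0.37 ± 0.19 (adjusted p = 0.331). SPL2 read 0.37, −0.12, 0.05 and 1.17, with array 4 again the highest. PHO89, the sodium-coupled phosphate transporter, read −0.82, −0.75, −0.77 and 0.21, with the same signs by array as PHO11 and PHO12. Without array 3, limma called 0 of all genes, with 385 at an unadjusted p under 0.05, so every call given here and below ended there. The ratios of these genes differed little from those on 4 arrays, at −5.47 for PHO84, −1.84 for VTC3 and −1.03 for VTC1 without array 3, where the smallest adjusted p of any gene was 0.193. VTC1 also lost its call without array 1, 2 or 4 (adjusted p = 0.0650, 0.0924 and 0.0633) and over all genes with a value in each experiment (adjusted p = 0.0822).

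**Figure D4:**
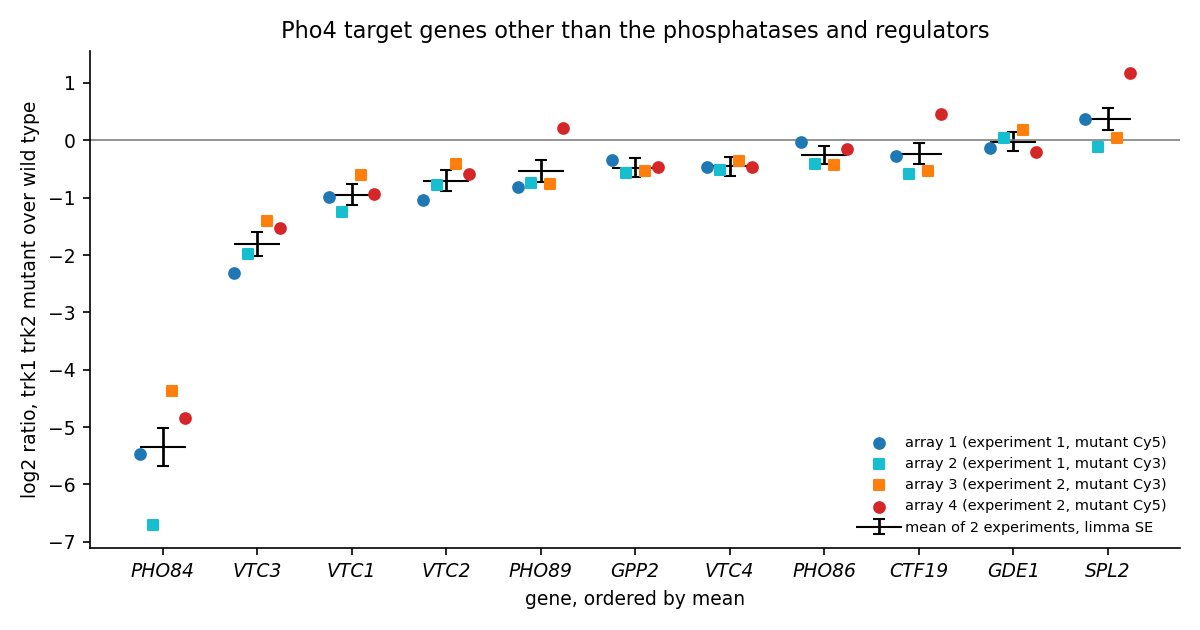
Log2 ratio of mutant over wild type (vertical axis) for the 11 other Pho4 target genes with values on 4 arrays (horizontal axis, by mean), with means and limma's SE over 2 experiments. PHO84 lies between −6.71 and −4.37, and SPL2 is the only gene shown with a positive mean.

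A further list of 13 held genes of PHO signalling and phosphate sensing, together with other phosphate-related genes such as PHO91 and PHO13. Of its 10 measured genes, 0 passed in either direction, with 5 positive and 5 negative means. In limma 3 genes, all lower, had an unadjusted p under 0.05 (12.9% of all genes). The kinase gene PHO85 read 0.29, 0.10, −0.17 and 0.07, around 0, with a mean of 0.07 ± 0.17 (adjusted p = 0.840). The cyclin gene PHO80 was listed on arrays 1 and 4 only, at 0.04 and −0.62, and was not tested. Among other phosphatase genes, 0 of 4 measured passed, 0 also at an unadjusted p under 0.05 in limma, and all 4 means were positive, from 0.14 to 0.30. The highest was PHO13, a soluble phosphatase that is also counted in the list before, at 0.30 ± 0.16 (adjusted p = 0.354). DIA3, a relative of the secreted acid phosphatases, was listed on array 4 alone, at −0.21, and SDT1, the paralogue of PHM8, read 0.19 ± 0.24 (adjusted p = 0.694).

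PHO3 was set beside other thiamine-regulated genes, of which 13 of 21 were measured on 4 arrays. None of them passed (0 higher and 0 lower in limma, 2 at an unadjusted p under 0.05, both higher, against 7.33% of all genes), 6 means were positive and 7 negative, and the median was −0.04. The highest were THI12 (1.17 ± 0.39, adjusted p = 0.167) and THI5 (1.07 ± 0.28, adjusted p = 0.102), which belong to a family of near-identical genes for the pyrimidine part of thiamine and are uncertain for that reason. THI12 read 2.69, 1.44, 0.33 and 0.21 and THI5 read 1.76, 1.51, 0.64 and 0.37, so experiment 1 was higher than experiment 2 in both. Of the same family, THI13 read 0.37 ± 0.16 (adjusted p = 0.277) and THI11 −0.31 ± 0.17 (adjusted p = 0.361), the latter below 0 on every array. PHO3 had the reverse order, with experiment means of 0.44 and 1.04, the latter from 0.40 on array 3 and 1.67 on array 4.

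PHO2 was set beside 16 measured genes of purine and one-carbon metabolism that Pho2 activates together with Bas1. Of these, 0 passed as higher and 1 as lower (1.62% and 1.74% of all genes). At an unadjusted p under 0.05 in limma 1 was higher and 7 were lower (7.33% and 12.9% of all genes), and 12 means were negative (55.2% of all genes), with a median of −0.35. GCV2, a subunit of glycine decarboxylase, fell 1.83-fold (−0.87 ± 0.16, adjusted p = 0.0473), and it lost its call without array 1, 2 or 4 (adjusted p = 0.0634, 0.0920 and 0.111) and over all genes with a value in each experiment (adjusted p = 0.0822). HIS4, a histidine synthesis gene, read 0.69 ± 0.16 (adjusted p = 0.0834). PHO4 was set beside genes of other basic helix-loop-helix proteins. Of these, 0 of 4 measured passed in limma (2 at an unadjusted p under 0.05, both lower, against 12.9% of all genes). CBF1, INO2, INO4 and RTG1 read −0.53, −0.60, −0.33 and 0.14.

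PHO8 was set beside other vacuolar hydrolases. Of 6 measured among 9 listed, 0 passed as higher and 1 as lower (1.62% and 1.74% of all genes), and 0 were higher and 3 lower at an unadjusted p under 0.05 in limma (7.33% and 12.9% of all genes). APE3, an aminopeptidase, fell 2.18-fold (−1.12 ± 0.16, adjusted p = 0.0236), and it lost its call without array 2 (adjusted p = 0.0585). The protease PRB1 read 0.66, 0.53, 0.68 and −0.71 and the aminopeptidase APE1 read 0.58, 0.54, 0.56 and −0.96. Both thus had the signs of PHO8, positive on arrays 1 to 3 and negative on array 4. The other measured hydrolases, PEP4, APE3, CPS1 and DAP2, did not have these signs. Array 4 alone opposed the sign of the other arrays, in either direction, in 19.0% of all genes.

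Of the neighbouring genes, PBY1 and IMD2 gave other values than the phosphatase genes PHO5 and PHO12 beside them. PBY1, on the far side of PHO5 from PHO3, read −0.45, −0.69, −0.51 and −0.50, below 0 on every array where PHO5 was above it (mean −0.53 ± 0.16, adjusted p = 0.141). IMD2, an IMP dehydrogenase gene next to PHO12, fell 4.01-fold, with −2.08, −1.87, −2.22 and −1.84 on arrays 1 to 4 (adjusted p = 0.0033). Its ratio on array 4 was close to those of the other arrays, unlike that of PHO12. IMD2 has near-identical relatives, and its value is uncertain for that reason. The other neighbours with 4 values in the RefSeq annotation were CWC21, ARB1, NAS6, YHB1, QCR6, MSS2 and NSE4, none of which passed. That annotation gave no gene after PHO11. YAR073W, which follows PHO11 by systematic name, read −2.479, −2.085, −2.407 and −2.311 and passed as lower (adjusted p = 0.0029 in limma). It was looked up after its values were seen. Probe sequences were not at hand, so whether this row and that of IMD2 carry separate signals was not tested.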

How the data were processed

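RNA of both strains was compared on 4 dual-colour arrays. The deposited values are log2 ratios per array. Spots under 120 µm or 100 fluorescence units were left out by the authors, per the labels, and cells are empty where no ratio is given. How the ratios were normalized and centred, on which scanner, and to which log base is not stated in the sources used here, and base 2 was assumed. Columns of opposite dye correlate positively and the deleted genes read negative, so ratios were read as mutant over wild type. Scanner intensities were not used, so the number of arrays limits the precision.

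Dye-swapped arrays were averaged per experiment. The pairing of arrays 1 and 2 and of arrays 3 and 4 was assumed from the wording of the descriptions, as the labels do not state it. The titles number the arrays as experiments 1 to 4. The 2 experiment means were compared with 0 in the 4255 genes with 4 values, using limma 3.58.1 in R 4.3.3 (lmFit, eBayes) with Benjamini-Hochberg adjustment over all genes at 0.05. The procedure was tested on simulated data, but how often it recovers changes of the members' size is not given here. Row names were matched to RefSeq locus tags (assembly R64), with 5662 of 6212 rows named. ADE5,7 was not matched. The genes and lists were chosen with earlier results of these data known. Genes named were the 9 members, TRK1, TRK2, list genes past the test, chromosomal neighbours, acid phosphatase relatives and the 3 genes nearest to PHO3. Other list genes (such as SPL2, PHO89, PHO85, PHO80, THI5, THI12, HIS4, CBF1, THI11, THI13, RTG1, PRB1, APE1, and those with 1 array far from the rest) were chosen after their values were seen.

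Alternatives changed the pairing, array averaging, dye term, random block, centring, scaling, gene filter, shrinkage and arrays included.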

Additional observations from a re-analysis of the deposited data

Results flagged for a closer look

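PHO2 read below 0 on both arrays with the mutant in Cy5 (mean −0.14) and above 0 on both with it in Cy3 (mean 0.41), a difference of −0.553. The dye term for it had an unadjusted p of 0.0472 and an adjusted p of 0.732 in limma. PHO12 differed more by dye, with means of −0.18 in Cy5 and −1.07 in Cy3, a difference of 0.891. Its dye term had an unadjusted p of 0.0403 and an adjusted p of 0.732 in limma. PHO3 and PHO5 also differed more than PHO2, by 0.823 and 0.752 (unadjusted p = 0.0885 and 0.0685 in limma). Array 4 is a Cy5 array, and dye and array were not told apart here. Among 83 members, list genes, neighbours and near genes with 4 values, 8 had 1 array far from the other arrays, 0 of them members. Chance gives about 1 such gene in 20, and 6.77% of all genes were of this kind. In 4 of the 8 the far array was array 4, and the gap is given as a share of the gene's range. APE1 read −0.96 there against 0.54 to 0.58 elsewhere (gap 0.974), PRB1 −0.71 against 0.53 to 0.68 (gap 0.891), PHO89 0.21 against −0.82 to −0.75 (gap 0.933) and YHB1, a flavohaemoglobin gene next to PHO81, 1.63 against −0.64 to −0.36 (gap 0.879). On array 1 DDP1, a polyphosphate phosphatase gene, read 0.48 against −0.16 to −0.08 (gap 0.868). On array 2 the purine gene ADE8 read −0.84 against −0.41 to −0.39 (gap 0.945) and the phosphatase relative DET1 read 0.03 against 0.17 to 0.20 (gap 0.851). On array 3 the one-carbon gene ADE3 read 0.67 against 0.02 to 0.12 (gap 0.842).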

How the results depend on the processing

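Of all genes tested, 69 passed as higher and 74 as lower. The counts were 255 and 473 with the other pairing, 163 and 250 with 4 separate arrays, 103 and 142 with a dye term as well, 185 and 292 with a random block, 106 and 99 with centred arrays, 40 and 39 over genes with a value in each experiment, and 130 and 179 over genes with at least 2 values. Leaving out 1 array gave 0 to 96 higher and 0 to 121 lower, both 0 without array 3 (385 genes at an unadjusted p under 0.05 in limma). Of the 9 genes, 0 passed as higher and 0 as lower. With the other pairing 2 passed as higher (PHO3 at 0.74, PHO5 at 0.63) and 2 as lower (PHO12 at −0.62, PHO81 at −0.52). PHO81 also passed, as 1 lower gene, with 4 separate arrays and with a random block, at −0.52 in both. No call among the 9 genes changed with a dye term, centring, scaling, either gene filter or robust shrinkage. What brought the added calls was not tested. The fits with the other pairing, separate arrays or a random block take their error from other contrasts than the main fit. Leaving out 1 array put PHO12 between −0.97 and −0.28, PHO5 between 0.33 and 0.93, PHO3 between 0.42 and 1.05, PHO81 between −0.58 and −0.46, and PHO2 between −0.014 and 0.29, the low value, without array 3, being the one change of sign among the 9 genes. Of the members past the test, leaving out 1 array gave 0 higher and 0 to 1 lower. Each ratio already pairs both strains on 1 array.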
